A study of Homo sapiens with 6 samples.

Results

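Chromatin silencers of endogenous retroviruses were followed in atypical teratoid rhabdoid tumor (AT/RT) cell lines as 10 genes: TRIM28, SETDB1, ATF7IP, FAM208A (also named TASOR), MPHOSPH8, PPHLN1, MORC2, ATRX, DAXX and CBX5. The genes were chosen by name for their known roles, and all 10 were found among the 36532 genes in the files. AT/RT is a childhood brain tumor that is usually defined by loss of SMARCB1, a subunit of the SWI/SNF chromatin remodelling complex. The 4 lines, all named CHLA with the numbers 02, 04, 05 or 06, were grown in serum-free medium with EGF, basic FGF and B-27, and stranded total RNA was sequenced. A single library was made from CHLA 02 and from CHLA 05, whereas CHLA 04 and CHLA 06 have 2 libraries each, labelled technical replicates. The labels do not say at which step these replicates were divided, and every line was taken as 1 biological sample. All 4 lines are AT/RT lines without a treatment, and none served as a control. Because no biological replicates were labelled, no test between lines was possible, and an SD here is the spread between 2 libraries labelled technical replicates.

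Most endogenous retroviruses in human cells are kept silent by repressive chromatin. KRAB zinc finger proteins bind the elements and recruit TRIM28 (KAP1), which brings the histone H3 lysine 9 methyltransferase SETDB1 and its partner ATF7IP, and the methylated histone is bound by HP1 proteins such as CBX5 (HP1 alpha). The HUSH complex of FAM208A, MPHOSPH8 and PPHLN1 spreads and maintains this mark with the ATPase MORC2. ATRX and its partner DAXX deposit a replacement form of histone H3 at repeats. The purpose of the comparison follows from the study, which asked how HERV-K is controlled in AT/RT cells and named SETDB1 and ATRX among remodellers linked to retroviral silencing.

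PPHLN1 itself uses retroviral sequence in its exons. It holds a HERVK22 provirus on its own strand, at chr12:42442199-42447156 in GRCh38, made of 2 LTR22E elements and 2 internal HERVK22 pieces between them. Exons of 6 of its 25 transcripts lie in this provirus. The most abundant PPHLN1 transcript, ENST00000432191, has 12 exons, and its exons 10, 11 and 12 overlap the provirus. Of its 1302 coding bases in GENCODE, 443 (34.0%) fall inside the provirus. Exon 10 (chr12:42442641-42442741, plus strand, hg38) is coding over all its 101 bases and is shown because it crosses from the 5′ LTR into the internal part. Capitals mark the 76 bases annotated as HERVK22, and the first 22 bases lie in LTR22E.

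PPHLN1 exon 10: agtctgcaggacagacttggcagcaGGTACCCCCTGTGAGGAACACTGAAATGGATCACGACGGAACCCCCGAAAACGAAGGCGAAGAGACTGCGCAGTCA

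Values are in TPM, a length-corrected share of the transcripts in a library, with the TPM of a gene summed over its transcripts. Depth on transcripts ranged from 10265899 to 20520229 recovered reads in a library, and the silencer genes had 386 to 22716 reads each in a library. Wilson 95% intervals of the total reads of a gene, scaled to its TPM, are drawn in the plot of TPM by library. They cover the counting error of that total only, and not of its division among transcripts of different length. All 10 genes were well expressed in every library, between percentiles 64.8 and 98.3 of the genes with a value above 0. Markers were checked as well. SMARCB1 RNA was at 13.5 to 26.2 TPM, and where in the gene its reads fall was not analysed. Of the neural progenitor genes, VIM was at 4629 to 19464 TPM and NES at 5.21 to 27.6 TPM. PAX6 was at 0.604 to 36.9 TPM, lowest in CHLA 06, and SOX2 did not exceed 4.03 TPM in any library. The collagens COL1A1 and COL3A1, 2 of 2 fibroblast markers, were at 387 and 841 TPM in CHLA 02 and at 459 TPM or more in each CHLA 06 library, against at most 11.5 TPM in CHLA 04 and CHLA 05. The leukocyte gene PTPRC, the endothelial genes PECAM1 and CDH5 and the hepatocyte gene ALB stayed at or under 0.743 TPM, and CD68 ranged from 0.236 to 22.6 TPM. The part of these differences in the results was not tested.

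**Figure D1:**
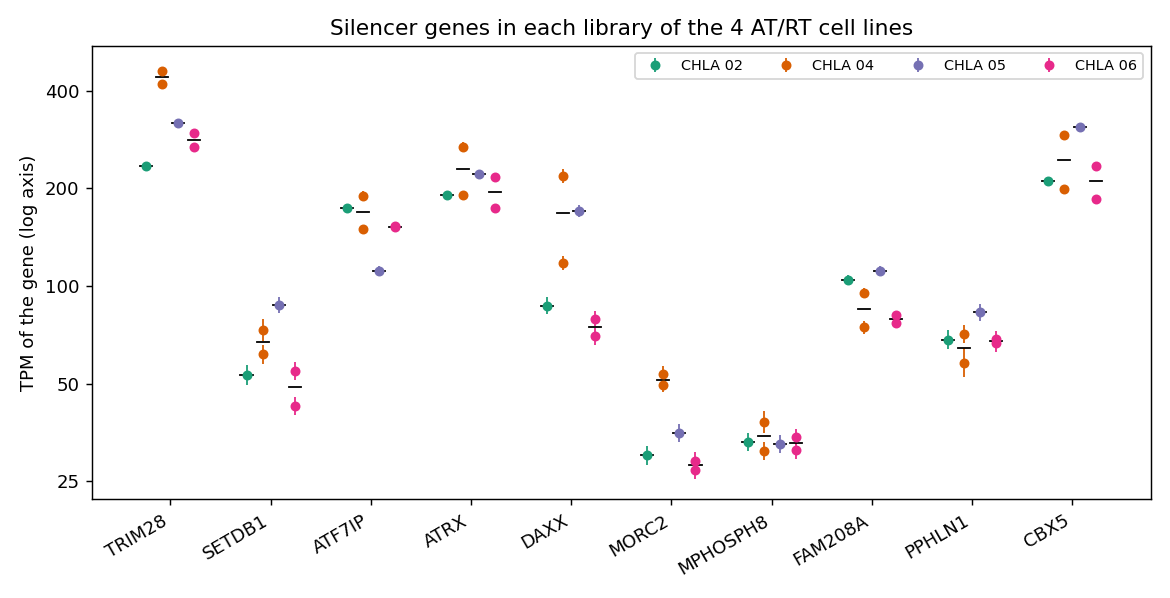
TPM of each silencer gene (log axis) in the 6 libraries, colored by cell line. Points are libraries with Wilson 95% counting intervals, and black lines are the mean of a line. DAXX showed the widest spread between lines and MPHOSPH8 the narrowest.

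The silencer genes differed by less than 2-fold between lines, with DAXX as the exception. A gene was called when its highest and lowest line differed by at least 2-fold on log2(TPM + 2), the technical replicates being averaged. Only DAXX was called, 1 of 10 genes, while 42.9% of the 12162 genes with a mean of at least 5 TPM were called by the same rule. The median difference between the highest and lowest line was 0.59 on the log2 scale over the 10 genes and 0.87 over all genes tested. CHLA 05 had the highest mean of 5 of the 10 genes, CHLA 04 of 4, CHLA 02 of 1 and CHLA 06 of 0. The lowest line was CHLA 06 for 5 of them, and for 37.9% of all genes tested. Both counts for CHLA 06 moved with the scaling: with median ratio scaling it was lowest for 2 genes (SETDB1 and DAXX) and highest for 2 (ATRX and MPHOSPH8). Among all genes tested, CHLA 05 was the highest line for 29.4%, CHLA 04 for 36.8%, CHLA 02 for 9.97% and CHLA 06 for 23.8%.

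**Figure D2:**
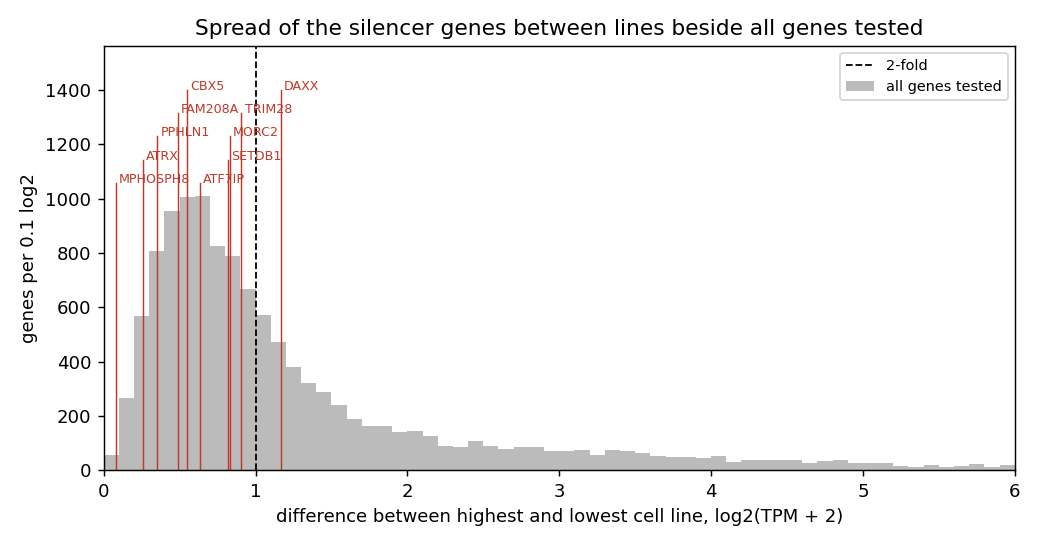
Number of genes tested (vertical axis) by the difference between their highest and lowest cell line on the log2(TPM + 2) scale (horizontal axis), with red lines for the 10 silencer genes. Only DAXX, at 1.17, lay beyond the dashed 2-fold line. The axis ends at 6.

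TRIM28, SETDB1 and ATF7IP form the core of the KRAB zinc finger pathway. TRIM28 (chr19:58544091-58550722, plus strand), the scaffold that zinc finger proteins recruit, had the highest mean of the 10 genes, 318 TPM over the 4 lines. It was at 234 TPM for CHLA 02, 462 and 419 for the replicates of CHLA 04, 317 for CHLA 05, and 296 and 268 for the replicates of CHLA 06. Both CHLA 04 libraries stood above all others, and the mean of CHLA 04 (440.2 ± 30.7 TPM, SD of 2 technical replicates) was 1.88 times the value of CHLA 02. CHLA 05 lay above both replicates of CHLA 06, and CHLA 02 lay below them. With median ratio scaling CHLA 05, at 299, lay between the CHLA 06 replicates at 326 and 287.

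SETDB1 (chr1:150926263-150964744, plus strand), the enzyme that places the methyl groups, was at 53.2 TPM in the CHLA 02 library, 73.2 and 61.6 in the pair of CHLA 04 libraries, 87.6 in the CHLA 05 library, and 54.9 and 42.7 in the pair from CHLA 06. CHLA 05 was 1.80 times CHLA 06, whose mean was 48.8 ± 8.60 TPM. CHLA 02 lay between the replicates of CHLA 06, so these lines did not differ beyond technical spread. Without replicate 1 of CHLA 06 the difference passed 2-fold, at 2.00 on the log2(TPM + 2) scale, so 1 library decided that call.

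ATF7IP (chr12:14365632-14502935, plus strand), which stabilises SETDB1 in the nucleus, had another order. It was at 174 TPM for CHLA 02, 111 for CHLA 05, 190 and 149.9 for the CHLA 04 replicates, and 152.9 and 152.1 for those of CHLA 06. CHLA 05, the line with the most SETDB1 RNA, had the least ATF7IP RNA, 1.56-fold below CHLA 02. On the leading SETDB1 transcript alone, CHLA 04 (20.9 TPM) and CHLA 05 (20.3 TPM) were close, with CHLA 04 replicates at 26.3 and 15.6 TPM. The ratio of ATF7IP to SETDB1 was 1.27 in CHLA 05 and 2.43 to 3.56 in the other 5 libraries. The ratio of TRIM28 to SETDB1 was likewise lowest in CHLA 05, at 3.62, and ranged up to 6.79 in replicate 2 of CHLA 04.

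The 3 HUSH subunits differed by at most 1.41-fold between lines. MPHOSPH8 (chr13:19633681-19673459, plus strand), the chromodomain protein that reads the methylated histone, was at 33.1 TPM for CHLA 02, 38.1 and 31.0 for the replicates of CHLA 04, 32.6 for CHLA 05, and 31.2 and 34.4 for the replicates of CHLA 06. The 4 lines differed by 1.06-fold at most, less than the replicates of CHLA 04 differed from each other (1.23-fold). Only 0.296% of the genes tested, itself included, differed by no more than this between lines. Median ratio scaling widened it to 1.16-fold.

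FAM208A (chr3:56620133-56683237, minus strand), the scaffold of the complex, was at 105 TPM in the CHLA 02 library, 74.5 and 95.6 in the pair of CHLA 04 libraries, 112 in the CHLA 05 library, and 81.2 and 76.8 in the pair from CHLA 06. CHLA 02 and CHLA 05 stood above the other 4 libraries, and the highest line was 1.41 times the lowest. PPHLN1 (chr12:42238447-42459715, plus strand), the third subunit, was at 68.4 TPM for CHLA 02, 83.1 for CHLA 05, 58.1 and 71.1 for the CHLA 04 replicates, and 66.6 and 68.8 for those of CHLA 06. Only CHLA 05 lay outside the range of the CHLA 04 replicates. Per length, FAM208A was 1.96 to 3.42 times and PPHLN1 1.53 to 2.55 times as abundant as MPHOSPH8. These ratios include transcripts that GENCODE lists as keeping an intron. By line, such transcripts held 25.6% to 32.0% of the FAM208A TPM and 15.0% to 25.5% of that of PPHLN1, while MPHOSPH8 has none.

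MORC2 (chr22:30925130-30968298, minus strand), the ATPase that compacts HUSH targets, was low in level and separated CHLA 04 from the rest. It was at 30.1 TPM for CHLA 02, 53.4 and 49.5 for the replicates of CHLA 04, 35.3 for CHLA 05, and 29.0 and 27.2 for the replicates of CHLA 06. Both CHLA 04 libraries were above the other 4, and CHLA 04 (51.5 ± 2.77 TPM) was 1.83 times CHLA 06 (28.1 ± 1.29 TPM). CHLA 02 and CHLA 06 had overlapping counting intervals. Relative to MPHOSPH8, MORC2 was at 1.40 and 1.60 in the CHLA 04 libraries and at 0.790 to 1.08 in the others.

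DAXX and ATRX act together but did not follow each other. DAXX (chr6:33318558-33329269, minus strand), the histone chaperone of the pair, was at 87.1 TPM in the CHLA 02 library, 218 and 118 in the pair of CHLA 04 libraries, 170 in the CHLA 05 library, and 70.1 and 79.4 in the pair from CHLA 06. CHLA 04 and CHLA 05 were above CHLA 02 and CHLA 06 in every library. CHLA 05 was 2.28 times CHLA 06 (74.7 ± 6.61 TPM), a log2 difference of 1.17. The replicates of CHLA 04 differed by 1.85-fold, the widest replicate gap of the 10 genes, so CHLA 05, which lay between them, could not be set above or below CHLA 04.

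ATRX (chrX:77504878-77786269, minus strand), the remodeller of the pair, was at 191 TPM for CHLA 02, 222 for CHLA 05, 268 and 190.3 for the CHLA 04 replicates, and 217 and 174 for those of CHLA 06. The lines differed by 1.20-fold and the replicates of CHLA 04 by 1.41-fold, so no line stood apart. The ratio of ATRX to DAXX was 3.09 and 2.19 in CHLA 06 and 2.20 in CHLA 02, against 1.23 to 1.62 in CHLA 04 and CHLA 05. CBX5 (chr12:54230940-54280133, minus strand), the HP1 protein that binds the finished mark, was at 211 TPM for CHLA 02, 199 and 291 for the replicates of CHLA 04, 309 for CHLA 05, and 186 and 235 for the replicates of CHLA 06. CHLA 05 was the highest library, 1.47 times the mean of CHLA 06, and the replicates of CHLA 04 alone spanned 1.47-fold.

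In single pairs of lines, DAXX was again the gene past 2-fold. It was lower in CHLA 06 than in CHLA 04, where 31.7% of all genes tested passed the same fold in either direction, and lower in CHLA 06 than in CHLA 05, where 26.3% did. None of the 10 genes passed in the other 4 pairs. There the share of all genes was 18.6% for CHLA 04 against CHLA 02, 20.0% for CHLA 05 against CHLA 02, 10.8% for CHLA 06 against CHLA 02 and 17.3% for CHLA 05 against CHLA 04. The pairs share libraries. The median of all genes was itself shifted by -0.20 on the log2 scale in CHLA 06 against CHLA 04 and by -0.18 against CHLA 05, and that of the 10 genes by -0.22 and -0.30. DAXX differed by -1.15 and -1.17. With median ratio scaling, which removed the shift, DAXX was at 1.95-fold between its highest and lowest line and no silencer gene was called. Without replicate 1 of CHLA 04, DAXX passed 2-fold only between CHLA 05 and CHLA 06.

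For CHLA 04 and CHLA 06 the replicates give a technical range. TRIM28, SETDB1, DAXX and MORC2 had both CHLA 04 libraries above both CHLA 06 libraries, 4 of 10 genes, where 46.4% of all genes tested did. No silencer gene had both CHLA 06 libraries higher, where 30.1% of all genes did, and the other 6 genes overlapped. Under quantile normalization and under median ratio scaling, PPHLN1 did have both CHLA 06 libraries above both CHLA 04 libraries. The replicates of CHLA 04 differed by 2-fold or more for 4.23% of genes and those of CHLA 06 for 1.18%, with none of the silencer genes among them. The median absolute difference of replicates over the 10 genes was 0.31 on the log2 scale in CHLA 04 and 0.14 in CHLA 06.

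The genes whose profiles over the 6 libraries were most like those of DAXX, TRIM28 and MORC2 were found by the root mean square difference of centred log2(TPM + 2). For DAXX they were ZHX3 (0.079), IRGQ (0.12) and SELO (0.12), where the median gene was at 0.63. NOC4L (0.054), GPATCH3 (0.055) and KEAP1 (0.058) were nearest to TRIM28, and PDAP1 (0.043), ZDHHC3 (0.047) and GPKOW (0.050) to MORC2, where the median gene was at 0.48. Within the group, TRIM28 and MORC2 were alike (0.13), whereas DAXX differed from ATRX by 0.46. These measures rest on 6 libraries of 4 lines, and technical replicates count as separate libraries. The CHLA 04 replicates of ZHX3 (42.9 and 26.4 TPM), IRGQ (32.7 and 16.0) and SELO (32.1 and 19.2) were split as those of DAXX were. The nearest genes were picked for the smallest differences among all genes tested, so their small values follow from the choice.

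The make-up of the transcripts differed between the genes. The files list 140 transcripts of the 10 genes, and for 9 genes the same transcript had the highest TPM in every library. MPHOSPH8 and CBX5 consisted nearly of 1 transcript each, ENST00000361479 with 91.4% to 95.2% of the TPM of MPHOSPH8 and ENST00000209875 with 86.2% to 97.2% of that of CBX5. TRIM28 had 74.9% to 79.8% of its TPM on ENST00000253024. SETDB1 was divided among 9 transcripts that reached 5% in a line. Its leading transcript, ENST00000534805, is 2043 bases long and differed by 1.25-fold between lines, where the summed TPM of the gene differed by 1.80-fold. The longest one, ENST00000271640 of 4437 bases, held 18.3% of the TPM in CHLA 06 and 9.28% to 11.2% in the other lines.

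ATRX alone had no single leading transcript, with 3 different leading transcripts among the libraries and 11 that reached 5%. Its transcript of full length, ENST00000373344 of 11220 bases, was at 29.9 TPM in the CHLA 02 library, 19.7 and 20.5 in the pair of CHLA 04 libraries, 24.7 in the CHLA 05 library, and 34.6 and 29.4 in the pair from CHLA 06. On this transcript both CHLA 06 libraries were above those of CHLA 04, while the summed TPM of the gene was highest in CHLA 04. Short transcripts add much TPM per read, so the level of ATRX and its order between lines depended on which transcripts were summed.

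DAXX and MORC2 changed in make-up as well as in level. The leading DAXX transcript, ENST00000266000, was at 41.3 TPM for CHLA 02, 95.1 for CHLA 05, 105 and 54.4 for the CHLA 04 replicates, and 25.4 and 33.9 for those of CHLA 06, a 3.20-fold difference between CHLA 05 and CHLA 06. A second coding transcript of DAXX, ENST00000620164, made up 20.3% of the TPM in CHLA 06 and 4.83% to 7.86% in the other lines. Its share differed between the CHLA 04 replicates, with 10.1 of 218 TPM in replicate 1 and 16.3 of 118 TPM in replicate 2. In CHLA 06 it held 16.6 of 70.1 TPM and 13.7 of 79.4 TPM. It was at 4.68 TPM for CHLA 02, 10.1 and 16.3 for the replicates of CHLA 04, 8.22 for CHLA 05, and 16.6 and 13.7 for the replicates of CHLA 06, so CHLA 04 and CHLA 06 overlapped in its level. The leading MORC2 transcript, ENST00000397641, was at 14.5 TPM in the CHLA 02 library, 43.5 and 31.1 in the pair of CHLA 04 libraries, 20.3 in the CHLA 05 library, and 15.5 and 15.3 in the pair from CHLA 06. Taken by this transcript alone, MORC2 passed 2-fold, with CHLA 04 at 2.57 times CHLA 02. The second one, ENST00000215862, was at 5.66 to 10.96 TPM in all libraries and did not separate the lines.

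Transcripts that GENCODE lists as retained introns, which keep an intron and are not counted as coding, made up less of the silencer RNA in CHLA 06. Their share of the TPM of a gene was lowest in CHLA 06 for all 9 silencer genes that have such a transcript, against 47.1% of the 6781 genes tested that have one. In 5 of the 9, namely TRIM28, SETDB1, DAXX, MORC2 and CBX5, both CHLA 06 libraries were below the other 4, where 26.5% of the genes were. MORC2 and CBX5 have 1 such transcript each, with only 1 to 16 and 0 to 9 reads in a library. For SETDB1 the gap was narrow, with 23.6% and 18.8% in CHLA 06 against 24.7% to 27.6% in the other libraries. For TRIM28 the share was 20.3% for CHLA 02, 18.5% for CHLA 05, 20.1% and 13.9% for the CHLA 04 replicates, and 7.98% and 7.85% for those of CHLA 06. For DAXX it was 17.1% for CHLA 02, 19.6% and 15.0% for the replicates of CHLA 04, 15.2% for CHLA 05, and 5.95% and 9.73% for the replicates of CHLA 06. The difference was small for ATRX, which had 13.7% to 15.5% in all libraries. Over all 6781 genes the median share was 11.98% and 10.5% in CHLA 06 and 13.6% to 16.4% in the other libraries. The CHLA 06 libraries were also the deepest, with 18765484 and 20520229 reads, and the part of depth or RNA preparation in these shares was not tested.

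**Figure D3:**
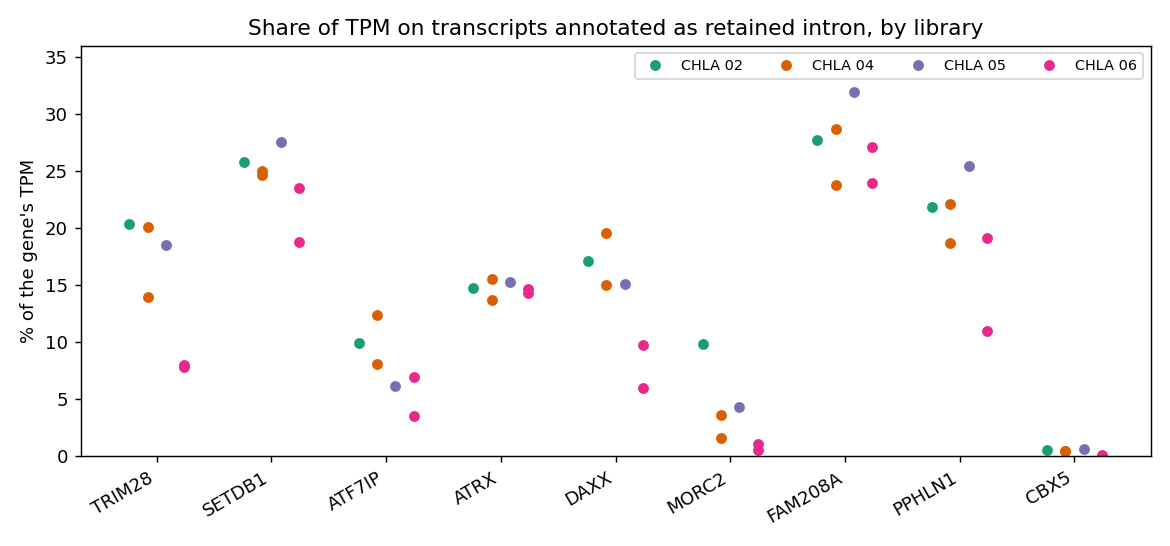
Percent of the TPM of each silencer gene on transcripts annotated as retained intron, by library. Points are libraries, colored by cell line. The CHLA 06 points lie lowest for TRIM28, SETDB1, DAXX, MORC2 and CBX5. The shares of MORC2 and CBX5 rest on 0 to 16 reads in a library. MPHOSPH8 has no such transcript.

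The provirus of PPHLN1 was read in all libraries. The 6 transcripts with exons in it together had 24.5 TPM in the CHLA 02 library, 19.3 and 30.6 in the pair of CHLA 04 libraries, 32.3 in the CHLA 05 library, and 24.9 and 33.0 in the pair from CHLA 06. This was 33.3% to 47.9% of the PPHLN1 TPM, and the replicates of CHLA 04 overlapped those of CHLA 06 in both measures. In the separate mapping to LTR elements, the 4 parts of the provirus had 231 reads for CHLA 02, 347 for CHLA 05, 103 and 382 for the CHLA 04 replicates, and 277 and 356 for those of CHLA 06. As a share of all reads on LTR elements this was 0.0496% in the CHLA 02 library, 0.0290% and 0.0747% in the replicates of CHLA 04, 0.0838% in the CHLA 05 library, and 0.0618% and 0.0740% in the replicates of CHLA 06. The replicates of CHLA 04 spanned the values of all libraries but that of CHLA 05. Reads from the PPHLN1 message and reads from any other transcript of the provirus cannot be told apart here, since its elements overlap exons of the gene on the same strand.

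**Figure D4:**
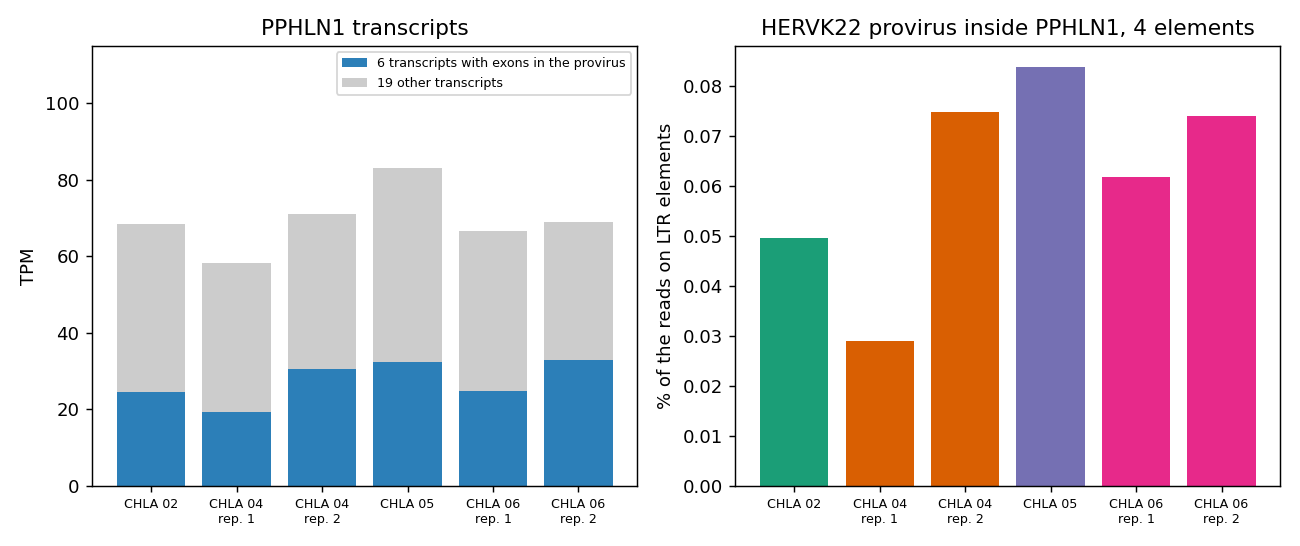
Left, PPHLN1 TPM per library, divided into the 6 transcripts with exons in the HERVK22 provirus (blue) and the 19 others (grey). Right, reads on the 4 proviral elements as a percent of all reads on LTR elements, colored by cell line. The blue part held 33.3% to 47.9% of the TPM.

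Other LTR elements inside the silencer genes had few reads. RepeatMasker places 99 LTR elements within the spans of 7 of the 10 genes, and 68.0% of all genes tested hold one. TRIM28, DAXX and MORC2 hold none. Elements with at least 10 reads in a library were found in ATF7IP, ATRX, FAM208A and PPHLN1, 4 of 10 genes, while 32.3% of all genes tested had one. Of the 2773 reads on the 99 elements in all libraries, 1696 (61.2%) were on the PPHLN1 provirus. Elements on the strand of the host gene had a read in 25 of 33 cases (75.8%) and those on the opposite strand in 8 of 66 (12.1%). Over all genes tested these shares were 73.5% and 13.9%, so the silencer genes were close to the background in both.

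Outside PPHLN1, all elements with at least 10 reads were intronic and on the strand of the gene. An MER52D element in ATRX (chrX:77703150-77705496) had 28 reads in the CHLA 02 library, 48 and 34 in the pair of CHLA 04 libraries, 33 in the CHLA 05 library, and 39 and 37 in the pair from CHLA 06. FAM208A held LTR69 (chr3:56650334-56650835) with 16 to 52 reads and LTR68 (chr3:56657384-56658084) with 10 to 41 reads in a library. Both had the most reads in CHLA 05, the line with the most FAM208A RNA. Both had the fewest in replicate 1 of CHLA 04, the library with the least FAM208A RNA and also the shallowest one. For LTR68, CHLA 05 had 41 reads against 40 and 38 in CHLA 06, the line with the least FAM208A RNA. CHLA 02 had 29 reads on LTR68. On the LTR scale, LTR69 was at 114 TPM in CHLA 05 and at 42.6 to 71.2 TPM in the other libraries. An MSTA element in ATF7IP (chr12:14379028-14379447) had 9 to 21 reads. Differences between lines in these elements were not tested.

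Promoter sequence from RefSeq (GRCh38.p14) was matched for 7 of the 10 genes: SETDB1, ATF7IP, MORC2, MPHOSPH8, FAM208A, PPHLN1 and CBX5. The 250 bases before the start nearest to the leading transcript were searched on both strands for 4 motifs. That start lay 476 bases from the leading transcript for MORC2, 220 for FAM208A and at most 32 for the others. The sequences hold 14 to 38 CpG sites (a C followed by a G), where the median promoter holds 11. The part of this difference in the motif shares was not tested. The E-box CACGTG, which MYC and MAX can bind, was found in SETDB1 and CBX5, 2 of the 7, and in 6.34% of 35116 promoters. The other motifs were GGGCGG (GC box; 5 of 7 genes and 42.6% of promoters), CCAAT (5 of 7 and 32.0%) and CCGGAAG (ETS core; SETDB1 and PPHLN1, 8.52%). The sequences of SETDB1 (chr1:150926113-150926362, plus strand) and CBX5 (chr12:54280123-54280372, minus strand) are shown because they hold the E-box, and capitals mark the E-box and the ETS core, which reads CTTCCGG on the other strand. Summed over transcripts, both genes had their highest TPM in CHLA 05, as 5 of the 10 did. The leading SETDB1 transcript, by which its promoter was matched, was at 20.9 TPM in CHLA 04 and 20.3 TPM in CHLA 05. The part of the E-box in these levels was not tested.

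SETDB1 promoter: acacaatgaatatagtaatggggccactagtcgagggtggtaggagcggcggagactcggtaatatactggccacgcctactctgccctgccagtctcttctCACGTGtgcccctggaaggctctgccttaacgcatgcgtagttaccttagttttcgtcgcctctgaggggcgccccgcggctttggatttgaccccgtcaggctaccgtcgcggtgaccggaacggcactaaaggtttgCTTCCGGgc
CBX5 promoter: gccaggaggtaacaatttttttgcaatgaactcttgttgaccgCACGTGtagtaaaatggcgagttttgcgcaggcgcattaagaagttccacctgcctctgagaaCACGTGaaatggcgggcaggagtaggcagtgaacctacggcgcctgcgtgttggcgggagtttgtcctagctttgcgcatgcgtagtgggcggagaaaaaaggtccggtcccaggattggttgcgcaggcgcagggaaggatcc

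Partners and relatives of the silencers were taken as 5 lists of 58 genes, of which 57 were tested. By the same rule, 17 of the 57 (29.8%) differed by 2-fold or more between their highest and lowest line, against 42.9% of all genes. Their highest line was CHLA 04 for 26 genes, CHLA 05 for 22, CHLA 06 for 6 and CHLA 02 for 3, counted over the 57.

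Among 11 HP1 and H3K9 methylation genes, 6 passed 2-fold. CBX1, the HP1 beta protein, was at 167 TPM for CHLA 02, 303 for CHLA 05, 378 and 348 for the CHLA 04 replicates, and 105 and 129 for those of CHLA 06, so its lines did not overlap. EHMT2 (G9a), which places lower methyl states on the same lysine, was at 187 and 140.2 TPM in CHLA 04 and at 64.1 to 89.0 TPM in the other libraries. SUV39H2, a methyltransferase of constitutive heterochromatin, reached 78.6 TPM for CHLA 05 against 34.1 TPM for CHLA 02, and its CHLA 04 and CHLA 06 replicates overlapped. WIZ, a partner of EHMT2, was at 93.1 and 130 TPM in CHLA 04 and at 52.3 to 66.6 TPM elsewhere. SETDB2, a relative of SETDB1, ran the other way, at 5.28 and 6.72 TPM in CHLA 04 and 12.8 to 16.1 TPM in the other libraries. CBX3 (HP1 gamma), the most abundant of the list at a mean of 306 TPM, differed by 1.24-fold.

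Among 13 corepressors and relatives of TRIM28, 4 passed. TRIM24, a relative of TRIM28, was at 160 TPM for CHLA 02, 257 and 250.4 for the replicates of CHLA 04, 52.5 for CHLA 05, and 14.5 and 18.6 for the replicates of CHLA 06, so CHLA 04 was 15.3 times CHLA 06. TRIM28 itself differed by at most 1.88-fold between any of the lines, from CHLA 02 to CHLA 04. HDAC1, a deacetylase of the NuRD complex, was highest in CHLA 06 with 342 and 332 TPM, against 116 to 218 TPM elsewhere. HDAC2, its close paralog, was lowest there with 65.1 and 60.4 TPM, against 82.8 to 136 TPM. RBBP7, a histone-binding subunit, was at 391 TPM in CHLA 05 and at 113 and 146 in CHLA 06. CHD3, a NuRD ATPase and the most abundant gene of the list at a mean of 282 TPM, was not called, and its CHLA 04 replicates were at 465 and 242 TPM.

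Of 10 histone and chaperone genes, H3F3A and CHAF1A passed. H3F3A, which encodes histone H3.3 and has near-identical copies that may share its reads, was at 1092 TPM in CHLA 05 and 287 to 336 TPM in the other libraries. CHAF1A, a subunit of the CAF-1 chaperone, was at 62.4 and 64.0 TPM in CHLA 04 and 25.8 in CHLA 02, and its CHLA 06 replicates at 20.0 and 42.5 TPM differed by more than 2-fold. Of 8 tested HUSH partners and MORC genes only SAFB, a scaffold attachment factor, passed, at 254 and 222 TPM in CHLA 04 and 105 and 118 in CHLA 06. ZNF638, which recruits HUSH to unintegrated retroviral DNA, had the highest mean of that list, 267 TPM, and differed by 1.44-fold.

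Of 15 genes of SUMO, PML bodies and DNA methylation upkeep, 4 passed. SP100, a PML body component, had the widest difference of the 57 genes. It was at 59.0 TPM in CHLA 02 and at 106 and 84.6 in CHLA 06, against 0 and 0.531 TPM in CHLA 04 and 1.64 in CHLA 05. DAXX, which also resides in PML bodies, was higher in the 2 lines where SP100 was near 0. PML itself did not follow this split, with its highest mean in CHLA 04 (93.5 TPM) and its lowest in CHLA 05 (46.4 TPM). A link between these genes was not tested. SENP7, a SUMO protease that acts on HP1 and TRIM28, was at 54.1 TPM in CHLA 05, 41.9 in CHLA 02, 43.6 and 39.7 in CHLA 04, and 19.4 and 18.5 in CHLA 06. UHRF1, which guides DNA methylation after replication, was at 171 and 206 TPM in CHLA 04 and 72.4 in CHLA 02, with CHLA 06 at 67.3 and 149 TPM. DNMT1, the maintenance methyltransferase and the most abundant gene of the list, was at 340 and 348 TPM in CHLA 04 and 155 to 305 TPM in the other libraries.

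**Figure D5:**
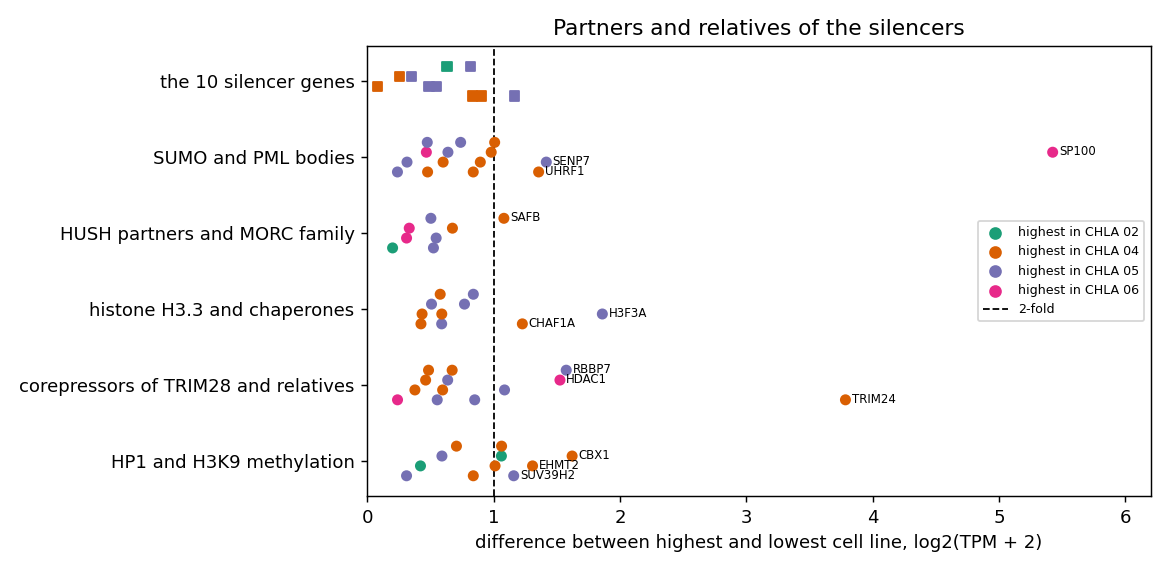
Difference between the highest and lowest cell line on the log2(TPM + 2) scale (horizontal axis) for the 57 genes of 5 related lists (circles) and the 10 silencer genes (squares), colored by the line with the highest mean. Vertical offsets within a row only separate the points. SP100 and TRIM24 lay farthest beyond the dashed 2-fold line.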

How the data were processed

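Total RNA of 4 AT/RT cell lines was sequenced in 6 libraries (stranded, paired-end). Per the submitters' processing notes and the study's methods, the authors used CASAVA 1.8.2, FastQC and Trimmomatic, mapped reads with CLCbio Genomics Workbench (RNA-Seq tool, GRCh38), and deposited TPM values per Ensembl release 82 transcript and, from a separate mapping, TPM values per LTR element. Versions of the other tools are not given in the sources used here.

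Gene TPM was summed over transcripts. Reads were recovered as whole multiples (tolerance 0.05) of the step of 1 read in TPM times length, which gave at least 99.6% whole values, and checked on simulated data. LTR TPM is scaled within LTR elements and is not comparable with gene TPM. Lines were compared by a 2-fold rule on log2(TPM + 2), over genes with a mean TPM of at least 5, without a test. Leading transcripts are those with the highest deposited TPM, and transcript types are from GENCODE 44. Computations used Python 3.11.15, pandas 2.3.3 and numpy 2.4.6. The genes and lists were chosen with earlier results of these data known. All 10 silencer genes are described. From each related list the genes past 2-fold, at most 5 by size, and the most abundant one are named, and the 3 genes most like DAXX, TRIM28 and MORC2.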

Additional observations from a re-analysis of the deposited data

How the results depend on the processing

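Each line was taken as 1 biological sample, so differences between lines include any difference between cultures. Only the spread between libraries labelled technical replicates was measured. No paired analysis was possible because the results come from no test. The number of silencer genes past 2-fold between the highest and lowest line was 1. It became 0 with median ratio scaling (DAXX at 1.95-fold; 41.7% of all genes), 2 with the single most abundant transcript (47.3%) and 5 with a fold of 1.5, where 71.1% of all genes were called. Leaving out each technical replicate gave 1 to 2. The number of calls over the 6 pairs was 2, and it became 1 with quantile normalization, 0 with median ratio scaling, 5 with the single most abundant transcript and 12 with a fold of 1.5, and 1 to 3 when a technical replicate was left out. Of the 60 combinations of a silencer gene and a pair, these counts are 3.33%, 1.67%, 0%, 8.33% and 20.0% from the first setting to the last. Over all genes tested the shares were 20.8%, 20.4%, 20.2%, 22.2% and 38.7% in the same order, and 20.1% to 23.1% without a replicate. In the related lists 17 genes passed, and 35 with a fold of 1.5. The other planned settings left these counts within 1.5 times. Reads scaled to depth without transcript length and coding transcripts alone, chosen after seeing the data, kept DAXX as the gene past 2-fold, with 42.1% and 39.2% of all genes called. Of 120 member ratios under an alternative, 111 moved by less than the SD of technical replicates on the log2 scale and 9 by more. For each gene the larger SD of CHLA 04 and CHLA 06 was used. DAXX, with its wide replicate gap, therefore counted among the 111 even where its 2-fold call was lost. Quantile normalization added PPHLN1, with CHLA 06 higher, to the genes whose CHLA 04 and CHLA 06 libraries did not overlap, and median ratio scaling added PPHLN1 in the same direction and removed SETDB1. CHLA 06 was the lowest line of 5 silencer genes (37.9% of all genes), of 3 with quantile normalization (27.0%) and of 2 with median ratio scaling (27.6%).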

Other observations

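SWI/SNF ATPase genes, read here as markers, differed more than the silencers did. SMARCA2 was at 20.9 TPM in the CHLA 02 library, 44.8 and 51.4 in the pair of CHLA 04 libraries, 35.4 in the CHLA 05 library, and 1.36 and 1.23 in the pair from CHLA 06. SMARCA4 was at 138 TPM for CHLA 02, 212 for CHLA 05, 342 and 256 for the CHLA 04 replicates, and 104 and 120 for those of CHLA 06. PAX6, a neural progenitor gene, was at 15.8 to 36.9 TPM in CHLA 02, CHLA 04 and CHLA 05 and at 0.604 and 0.937 TPM in CHLA 06.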
